A study of Mus musculus with 6 samples.

Results

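The midbrain-hindbrain organizer genes examined here were En1, En2, Pax2, Pax5, Pax8, Gbx2, Fgf8 and Fgf17. They were chosen by name, as the probes whose gene name on the array equals 1 of these symbols, and they made up 8 of 34797 named genes and 13 of 55681 probes. Expression was measured in the cerebellum of pups at postnatal day 1 (P1) on 6 single-colour Agilent arrays, whose mothers, C57BL/6J mice, ate a purified amino acid diet of the AIN-93G type from 1 week before mating and through pregnancy. The diet of the control group held folic acid (FA) at 2 mg/kg and that of the test group held FA at 20 mg/kg. For each sex there was 1 array of the 2 mg FA group and 2 arrays of the 20 mg FA group (replicates 1 and 2), and each array held pooled tissue of 3 pups from different dams. The spread between pools was therefore measured at 20 mg and not at 2 mg, and since the extraction at 20 mg was repeated in another batch of pups, that spread and every error built on it hold pool and batch together. The samples are titled cerebellum, as in the extraction protocol, although their tissue entry reads whole brain.

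The organizer is a band of cells at the boundary of midbrain and hindbrain, the isthmus, which patterns the tissue on both sides in the embryo. Otx2 on the midbrain side and Gbx2 on the hindbrain side repress each other and place the boundary, the secreted factors Fgf8 and Fgf17 carry the signal, and the paired-box factors Pax2, Pax5 and Pax8 and the engrailed homeobox factors En1 and En2 keep the program running and pass it to the tectum and cerebellum. At birth the organizer itself is gone. En2 stays on in cerebellar granule and Purkinje lineages, and Pax2 in the precursors of cerebellar inhibitory interneurons.

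Each value rests on a probe of 60 bases, so the probes that carry the results are shown, 5′ to 3′ in the sense of the transcript. Capitals mark the longest run that the probe shares with a probe of any other gene on the array, which compares probes with probes and not with whole transcripts. The Pax2 and Pax5 probes are given whole, and of the others the 30 bases around the shared run are given. Positions are those of the whole probes in mm9, from the array design.
En1, chr1:122504067-122504126, plus strand: cttacgaccGTGTATATATTTAatttcagg
En2, chr5:28498468-28498528, plus strand: tgaataacCATCTGCTGCTTGGGggtcggt
Pax2, chr19:44909895-44909954, plus strand: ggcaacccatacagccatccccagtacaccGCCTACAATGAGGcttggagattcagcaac
Pax5, chr4:44658421-44658480, minus strand: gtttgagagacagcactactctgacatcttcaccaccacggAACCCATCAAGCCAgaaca
Pax8, chr2:24276147-24276206, minus strand: gtctttggTCTCTGAAATATCTccctacta
Gbx2, chr1:91825013-91825072, minus strand: gAGAGTATATTCATtagacgggcttaaagg
Fgf8, chr19:45811355-45811414, minus strand: agttgtgcATATTGTTTGCTGTTgggtttt
The longest shared run of the 13 member probes was 12 to 15 bases of 60. No member probe therefore held a long stretch of another gene's probe, the paralogs En1 and En2 included, and a match to other transcripts was not tested. The GC content of the member probes reached 70.0% for a Pax2 probe, with a median of 43.3% over all probes. Exon and UTR annotation in mm9 was not used here.

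The arrays differed in brightness. Between 51.1% and 71.9% of probes were well above background on 5 arrays, against 23.3% on female 20 mg replicate 2, whose median processed signal was 5.17 against 41.8 to 178 on the others. Signals were log2 transformed and quantile normalized over the 6 arrays, with a floor at 3.32, the log2 of 10. On female 20 mg replicate 2 the lowest normalized value that counted as well above background was 8.82, against 3.36 to 5.01 on the other arrays, so a member below 8.82 there has only an upper bound. The 2 mg arrays and female 20 mg replicate 1 lay on 1 slide, female replicate 2 and male replicate 1 of the 20 mg group on another slide scanned on an earlier day, and male 20 mg replicate 2 on a slide of its own. Dose is thus partly confounded with slide, and in males entirely, where the parts of slide and dose cannot be told apart. In tissue of this kind, fewer cells of a type and less RNA per cell cannot be told apart either.

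Each probe of the engrailed genes was printed 10 times on every array, so the error within an array could be measured for them. En2 was the only member well above background on all 6 arrays. Its log2 normalized level was 10.58 on the female 2 mg array, 10.20 and 10.09 on the female 20 mg arrays, 12.26 on the male 2 mg array, and 13.20 and 11.16 on the male 20 mg arrays. Every male array lay above every female array, while within a sex the doses were close in females and the 2 mg array lay between both 20 mg arrays in males. Over all probes tested, 2.25% had all 3 male arrays above all 3 female arrays and 2.14% had them below.

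The male mean of En2 was 12.21 ± 1.02 (SD, n = 3) and the female mean was 10.29 ± 0.26 (SD, n = 3). The sex contrast over both doses was added after the levels had been seen: limma gave a male minus female difference of 1.86 ± 0.80 (SE, log2), with an unadjusted p of 0.031 and an adjusted p of 1.00. In this contrast limma called 0 of 37211 probes, with 54 at an unadjusted p under 0.05. Leaving out female 20 mg replicate 2 gave a difference of 1.74 with an unadjusted p of 0.062 by limma. The male arrays stayed above the female arrays under the 75th percentile shift, both other background settings, the authors' value table, and when only the 4 arrays scanned on the later day were normalized together. In processed signals without scaling the sexes overlapped, since male 20 mg replicate 2 read 1241 and female 20 mg replicate 1 read 5085.

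The repeat spots show how tight a single array was. The unflagged En2 spots of the male 2 mg array ran from 11427 to 13124 in processed signal and those of the female 2 mg array from 3247 to 3585, a gap many times the spread within either array. The coefficient of variation over En2 spots was 3.56% on the male 2 mg array and at most 9.34%, on female 20 mg replicate 2. Spots of 1 array share 1 pool, so this is a technical spread and not that of pups.

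**Figure D1:**
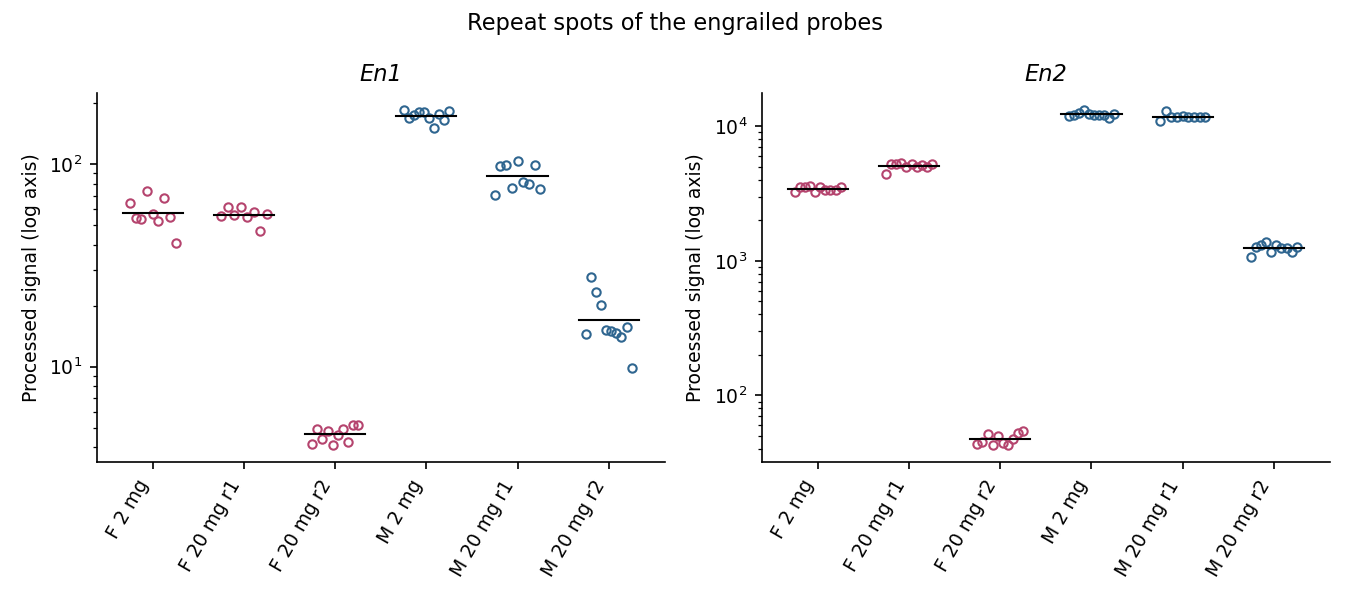
Processed signal (log axis) of each spot of the En1 and En2 probes on the 6 arrays, females in red and males in blue, r1 and r2 being replicates 1 and 2; circles are spots not flagged as outliers and lines are their means. En2 spots cluster tightly on each array, at 3430 in the female 2 mg array and 12205 in the male 2 mg array, and at 47.3 on the dim array, female 20 mg replicate 2.

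En1, which is needed with En2 for midbrain and cerebellum to form, read low. Its log2 level was 5.02 on the female 2 mg array, 4.27 and 4.13 on the female 20 mg arrays, 6.13 on the male 2 mg array, and 6.39 and 4.51 on the male 20 mg arrays. The male 2 mg array and male 20 mg replicate 1 were highest, and male 20 mg replicate 2 fell among the female arrays. En1 was not well above background on either replicate 2 array. The sex contrast for En1 was 1.18 ± 1.18 (SE, log2; limma adjusted p = 1.00).

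Between doses neither engrailed gene passed the test. The male difference of En1, 20 mg minus 2 mg, was -0.68 ± 1.67 (SE, log2) and the female difference was -0.82 ± 1.67 (limma, adjusted p = 1 in both). For En2 the male difference was -0.08 ± 1.14, with replicate 1 above and replicate 2 below the 2 mg array. The female difference of En2 was -0.43 ± 1.14, and both replicates lay below the 2 mg array by 0.38 and 0.49 (limma, adjusted p = 1). The 95% interval of the En2 difference ran from -2.45 to 2.29 in males and from -2.80 to 1.93 in females.

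**Figure D2:**
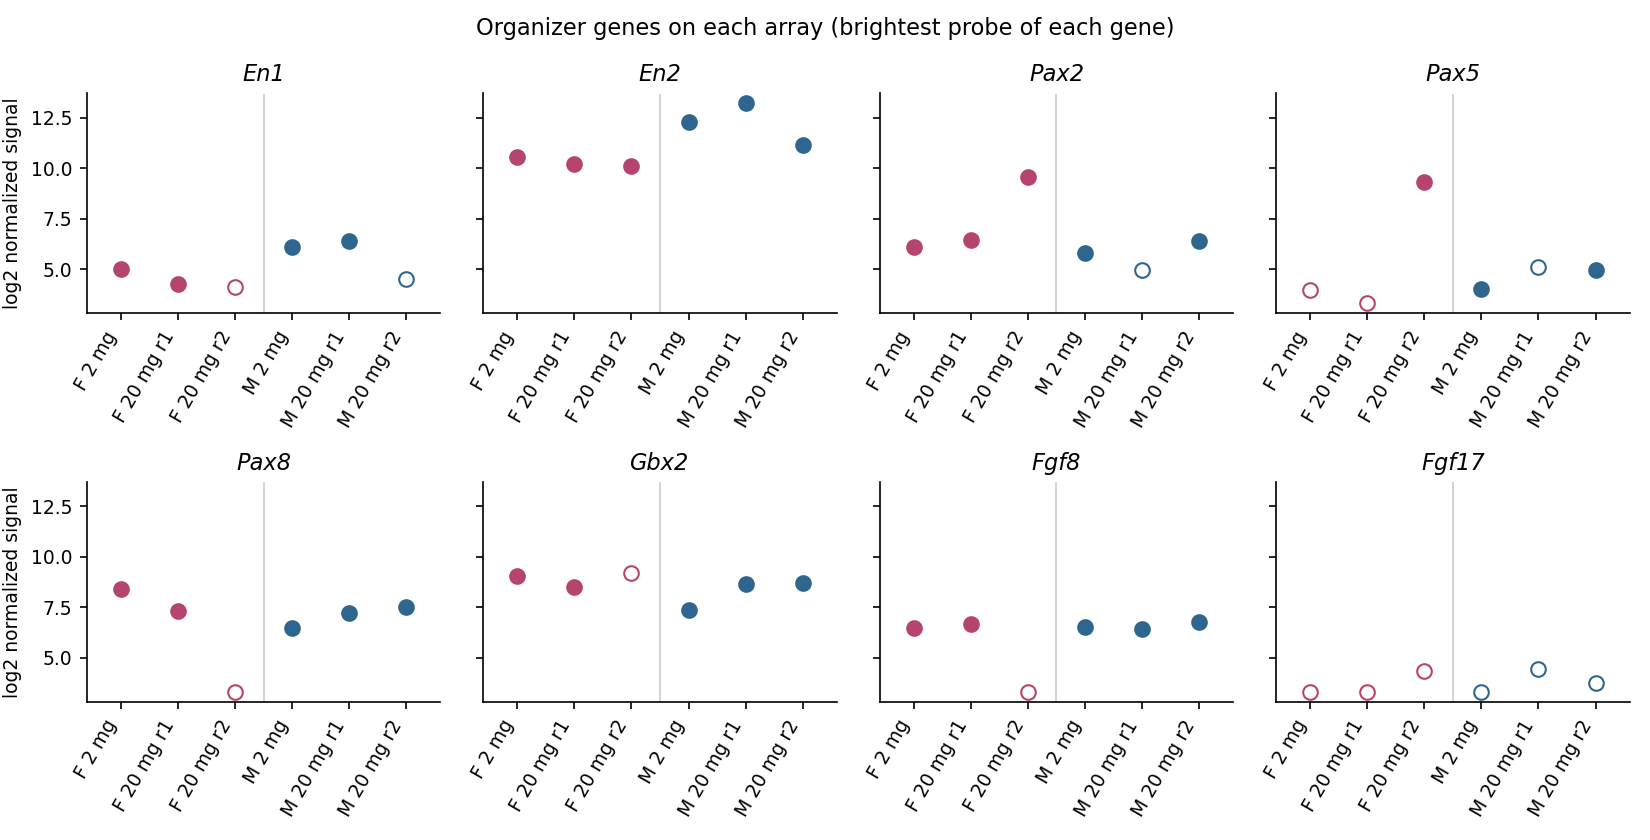
Log2 normalized signal of the brightest probe of each organizer gene on the 6 arrays, females in red and males in blue, r1 and r2 being replicates 1 and 2; filled points are well above background and open points are not. En2 is the only gene filled on all arrays and the only one whose male points all lie above its female points, and Fgf17 is open throughout.

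Gbx2, the homeobox factor of the hindbrain side, was the member whose 20 mg arrays lay closest together in males while standing off the 2 mg array. Its log2 level was 7.38 on the male 2 mg array and 8.64 and 8.71 on the male 20 mg arrays. In females it was 9.07 on the 2 mg array and 8.51 and 9.18 on the 20 mg arrays, the last of these not well above background. The male 2 mg array was thus the lowest of all 6, and the female doses overlapped.

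In males Gbx2 was 1.30 higher at 20 mg on the log2 scale, a ratio of 2.46, with the 20 mg arrays differing by an SD of 0.05 (n = 2). This lies just inside the 2.5-fold threshold, and the filter on variation left Gbx2 out. Under other settings the male difference was 1.34 (75th percentile shift) and 1.36 (without female 20 mg replicate 2). Both are past the threshold of 1.32, though the filter on variation left Gbx2 out there too. The male difference was 1.26 (floor before normalization), 1.07 (authors' value table), 0.98 (normexp) and 0.96 (uncorrected brightness). Limma gave an SE of 1.65 and an adjusted p of 1 for it, and the SE was 0.58 when dim probes were not filtered out before the fit, again with no member called. In females the difference was -0.22 ± 1.65 (limma, adjusted p = 1). The male difference cannot be told apart from slide, since the male 20 mg arrays were on other slides than the 2 mg array.

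Among the paired-box factors, Pax8 read lower on the female 20 mg arrays than at 2 mg, with 1 of them at the floor. On the male 20 mg arrays Pax8 read higher than at 2 mg. Pax2 and Pax5 had their highest normalized values, though not their highest processed signals, on the dim array. Pax8, which works with Pax2 and Pax5 at the early isthmus, had a log2 level of 8.41 on the female 2 mg array and 7.30 and 3.32 on the female 20 mg arrays. In males Pax8 read 6.49 at 2 mg and 7.24 and 7.49 at 20 mg. The female difference was -3.10 ± 2.28 and the male difference 0.87 ± 2.28 (SE, log2; limma, adjusted p = 1 in both). The value of 3.32 is the floor on female 20 mg replicate 2, where no level under 8.82 was well above background, so the 2 mg level of 8.41 could not have been read there either. Within slide 1, female 20 mg replicate 1 was 1.11 below the female 2 mg array.

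Pax2, which marks the precursors of cerebellar inhibitory interneurons at birth, has 3 probes on the array. The brightest read 6.12 on the female 2 mg array, 6.47 and 9.58 on the female 20 mg arrays, 5.81 on the male 2 mg array, and 4.95 and 6.40 on the male 20 mg arrays. The value of 9.58, on female 20 mg replicate 2, stood apart from the others, which overlapped between doses and sexes. Before scaling this signal was 31.8, against 136 on the female 2 mg array. The probe at chr19:44871124-44871183 was well above background on 3 arrays and the probe at chr19:44835420-44835479 on 0.

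The female difference of the brightest Pax2 probe was 1.91 ± 2.25 and the male difference was -0.14 ± 2.25 (SE, log2; limma, adjusted p = 1 in both). Female replicate 1 alone lay 0.36 above the 2 mg array. Ptf1a, the factor that starts the inhibitory lineage of the cerebellum, read 6.36 on the female 2 mg array and 6.08 and 8.29 on the female 20 mg arrays, the last of these not well above background.

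Pax5, a factor of the isthmus in the embryo and of B cells after birth, was near background. Its brighter probe read 3.98, 3.32 and 9.34 on the female 2 mg array and the 20 mg replicates 1 and 2, and 4.05, 5.10 and 4.95 on the male arrays in the same order. It was well above background on female 20 mg replicate 2, the male 2 mg array and male 20 mg replicate 2. The processed signals before scaling were 24.8, 23.4 and 26.5 in females and 35.3, 24.1 and 23.9 in males. The median processed signal of all spots was 102, 178 and 5.17 on these female arrays, so near-equal signals are not equal levels. Why the normalized value was high on the dim array was not tested. The fitted female difference was 2.35 ± 2.01 and the male difference 0.97 ± 2.01 (SE, log2; limma, adjusted p = 1 in both), and no ratio is given in females, where Pax5 was well above background on 1 of the 3 arrays. When that array was left out Pax5 was -0.78 in females, the opposite sign. Of 8 B cell markers, 4 were well above background on the female 2 mg array, 6 and 1 on the female 20 mg arrays, 6 on the male 2 mg array, and 4 and 3 on the male 20 mg arrays, and the defining markers Ms4a1 and Igll1 were so on no array.

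Fgf8, the signal of the organizer, varied little where it was measured. Its brightest probe read 6.49 on the female 2 mg array and 6.67 on female 20 mg replicate 1, and 6.53, 6.41 and 6.75 on the male arrays. On female 20 mg replicate 2 it stood at the floor of 3.32. The 5 measured arrays spanned 0.34 on the log2 scale, the narrowest range of any member's representative probe over these arrays, and the sexes and doses overlapped.

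The male difference of Fgf8 was 0.05 ± 2.16 and the female difference -1.50 ± 2.16 (SE, log2; limma, adjusted p = 1 in both). The female value was 0.19, the opposite sign, when the dim array was left out. The probes at chr19:45811668-45811727 and chr19:45816855-45816914 were well above background on 1 array, female 20 mg replicate 1, and on 0 arrays. Fgf17, a relative of Fgf8 that acts later on the cerebellar midline, was not well above background on any array, with normalized values from 3.32 to 4.45, and no difference is given for it.

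**Figure D3:**
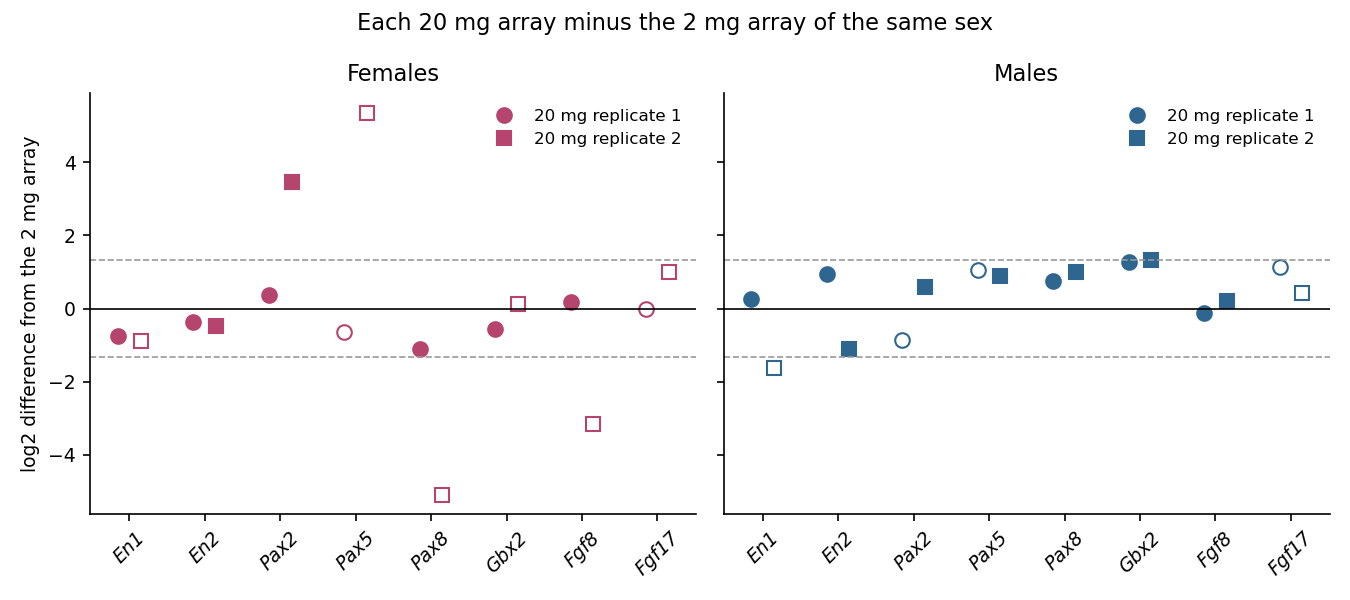
Log2 difference of each 20 mg array from the 2 mg array of the same sex, for the brightest probe of each organizer gene; circles are replicate 1, squares replicate 2, filled where both arrays were well above background, and dashed lines mark 2.5-fold. The points furthest from 0 are those of female 20 mg replicate 2 for Pax5, Pax8, Pax2 and Fgf8, and in males the Gbx2 points sit together at 1.26 and 1.33.

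Across the family no dose difference passed the test. Of the 13 member probes 8 were well above background on at least 2 arrays and were tested, covering 7 genes, and limma called 0 of them in males, females, both sexes together or the interaction of dose and sex. The background was also 0% of 37211 probes in each contrast, with 74, 161, 145 and 51 probes at an unadjusted p under 0.05 and 0 members among them. The median difference of the 8 probes was -0.02 in males and -0.33 in females, beside -0.04 and -0.21 over all probes tested.

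By the fold rule, which asks for 2.5-fold between dose means after the filter on variation, 5 of the 13 member probes were kept. In males 0 of them passed, where 13.1% of all kept probes did, 7.92% lower and 5.18% higher. In females 4 passed, Pax2 and Pax5 higher and Pax8 and Fgf8 lower at 20 mg, where 69.2% of all kept probes did, 37.6% lower and 31.6% higher. With the dim array left out the female count was 0, where 16.6% of kept probes passed, and the male count was 1, a Fgf8 probe well above background on no array, where 25% passed. The 4 female calls therefore rest on the dim array.

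The 3 arrays of slide 1 allow 2 comparisons free of slide and scan day, each of single arrays and so with no test. Female 20 mg replicate 1 against the female 2 mg array gave 0 of 6 measured member probes past 2.5-fold, where 4.39% of 34809 probes were. The largest of the 6 was Pax8, at -1.11, followed by En1 at -0.75 and Gbx2 at -0.56.

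The second comparison, the male 2 mg array against the female 2 mg array, was added after the values had been seen. Of 6 member probes measured on both arrays, 3 passed 2.5-fold, where 0.878% of 34415 probes did, 0.34% higher and 0.538% lower in the male pool. En2 was 3.21-fold higher in the male pool, and Gbx2 and Pax8 were 3.22-fold and 3.79-fold lower. En1 was 2.16-fold higher, while Pax2 differed by -0.30 and Fgf8 by 0.04 on the log2 scale.

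Few probes of the array lay as far from 0 as these. A difference of at least the size of En2 was seen in 0.477% of probes, of Gbx2 in 0.465%, of Pax8 in 0.308% and of En1 in 1.40%. The direction of these 4 was the same under all scalings tried, where En2 ranged from 2.86-fold to 3.56-fold higher, Gbx2 from 2.43-fold to 3.36-fold lower and Pax8 from 2.58-fold to 3.96-fold lower, so that Gbx2 fell short of 2.5-fold with normexp (2.48-fold) and with uncorrected brightness (2.43-fold). En1 ranged from 1.40-fold to 3.01-fold higher. At 20 mg both male arrays lay above both female arrays for En2 and En1, though En1 was not well above background on either replicate 2, while Gbx2 read 8.51 and 9.18 in females and 8.64 and 8.71 in males.

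**Figure D4:**
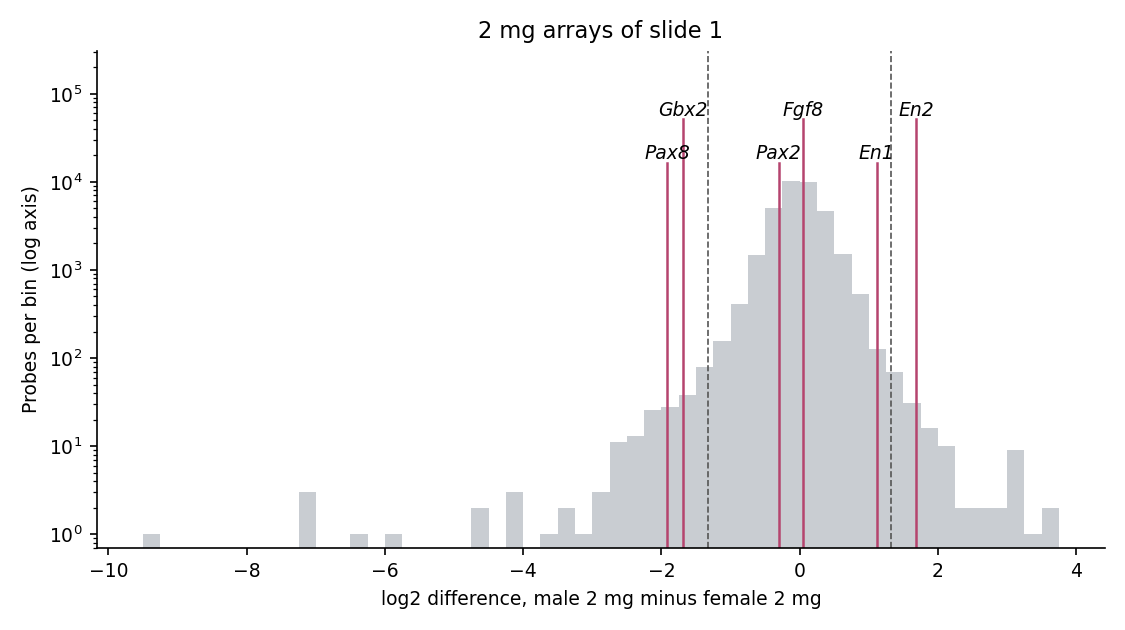
Number of probes (log axis) by log2 difference between the male and the female 2 mg array of slide 1, for probes well above background on both, in bins of 0.25; red lines mark organizer genes and dashed lines 2.5-fold. En2 lies in the right tail at 1.68, Gbx2 and Pax8 in the left tail at -1.69 and -1.92, and Fgf8 and Pax2 near the middle.

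Markers of neighbouring brain regions also differed between the 2 mg pools. Past 2.5-fold were 9 of 10 brainstem and cord markers, 5 of 10 of forebrain and 3 of 6 of choroid plexus. The same held for 2 of 10 midbrain, 1 of 14 cerebellar and 0 of 6 meningeal markers, so differences of this size were not particular to the organizer genes. All 10 brainstem and cord markers (Hox genes and the glycine transporter Slc6a5 among them) read lower in the male pool, by a median of -1.93 and up to -2.73 for Hoxa5. Of 10 forebrain markers 8 read lower, with a median of -1.48, led by Dlx1 at -3.13 and Dlx2 at -2.80. Cerebellar markers lay nearer to 0: 8 of 14 read higher and 6 lower, with a median of 0.22, and Barhl1 of granule cell precursors was the furthest at 1.48. Midbrain markers split into 6 higher and 4 lower, with a median of 0.28, and Foxa2 was the furthest at 1.64. Zic1, a factor of the granule cell lineage, read 14.04 to 15.47 on the 6 arrays, and 14 of 14 cerebellar markers were well above background on both 2 mg arrays.

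**Figure D5:**
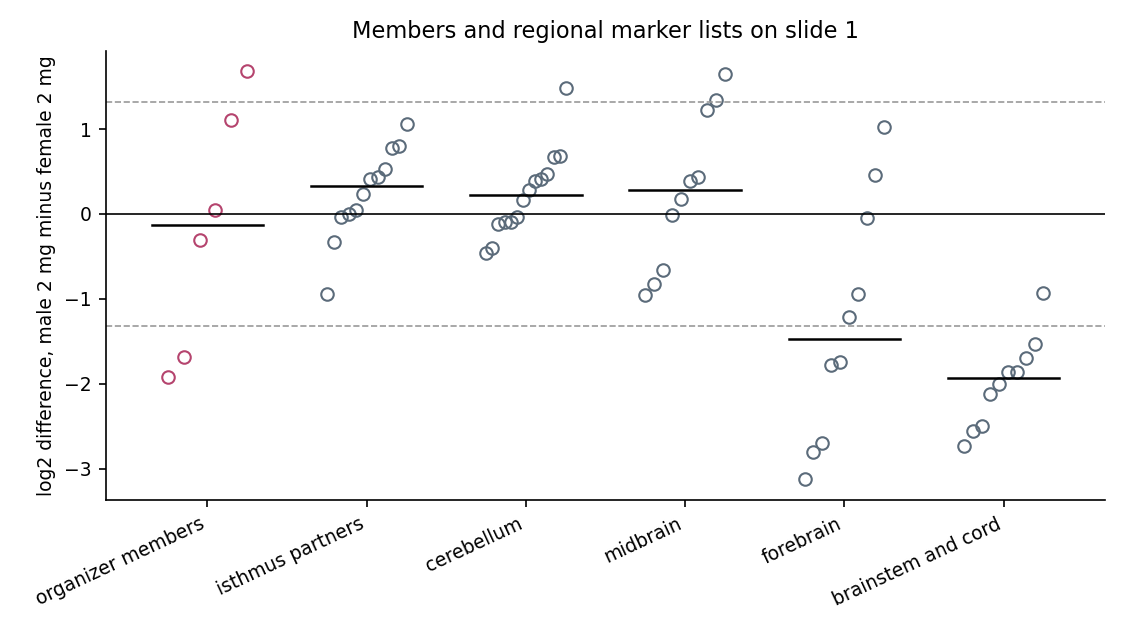
Log2 difference between the male and the female 2 mg array for 6 organizer genes and the genes of 5 lists, each point a gene well above background on both arrays; black lines are medians and dashed lines mark 2.5-fold. All brainstem and cord points lie under 0, as do Gbx2 and Pax8, while En1 and En2 lie above 0 with most of the isthmus partners.

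The summed linear level of these lists moved between arrays. For brainstem and cord it was 20232 on the female 2 mg array, 17495 and 6145 on the female 20 mg arrays, 4893 on the male 2 mg array, and 3796 and 9287 on the male 20 mg arrays. For forebrain the sums ran from 4638 to 21050, with 10589 and 7172 on the female and male 2 mg arrays. For cerebellum they ran from 38737 to 63905. Choroid plexus stood at 3044 on the female 2 mg array against 21135 to 76895 on the others. Linear sums follow the brightest gene of a list most, which was Ttr for choroid plexus and Zic1 for cerebellum on every array. Ttr alone read 11.21 in log2 on the female 2 mg array and 14.26 to 16.16 on the others. En2 was highest on male 20 mg replicate 1 and the male 2 mg array, where the brainstem sums were lowest, and lowest on female 20 mg replicate 2. On that dim array 4 of 10 brainstem and cord markers were well above background, so its sum of 6145 cannot be ranked beside the others. Gbx2 and Pax8 were lower on the male than on the female 2 mg array, as the brainstem sum was. On male 20 mg replicate 1, with a sum of 3796, they read 8.64 and 7.24. On female 20 mg replicate 1, with a sum of 17495, they read about the same, 8.51 and 7.30. The part of tissue makeup in the differences of En2, Gbx2 and Pax8 was not tested.

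No gene known to work with the organizer passed the test. Of 44 genes of the pathway (isthmus partners, FGF receptors, FGF feedback and target genes, genes of the inhibitory lineage and genes related to engrailed), all were tested and limma called 0 in any contrast. Of the 11 kept by the filter on variation, 1 was lower and 0 higher past 2.5-fold in males, and 6 were lower and 1 higher in females, beside the 13.1% and 69.2% above. Between the 2 mg arrays 0 of 43 measured passed 2.5-fold.

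Otx2, the partner of Gbx2 at the boundary, read 11.55 on the female 2 mg array, 12.16 and 11.49 on the female 20 mg arrays, 12.61 on the male 2 mg array, and 12.46 and 11.87 on the male 20 mg arrays. Otx2 was highest on the male 2 mg array, 1.06 above the female 2 mg array, and in males both 20 mg arrays lay below it. In females the doses of Otx2 overlapped. The male 2 mg array was also the one where Gbx2 was lowest, and a link between Otx2 and Gbx2 was not tested. Spry4, an FGF-induced inhibitor of FGF signalling, was the gene of the list past 2.5-fold in both sexes: 7.84 at 2 mg and 7.64 and 3.32 at 20 mg in females, 7.27 at 2 mg and 5.31 and 5.82 at 20 mg in males. Its differences were -2.36 and -1.71, on values not well above background on female 20 mg replicate 2 and male 20 mg replicate 1, and limma did not call it. In females Spred1 and Spred2, inhibitors of the same pathway named here after their values were seen, differed by more, -3.73 and -3.29, and Spry2 by -1.96, with all 3 at the floor on female 20 mg replicate 2. Of readouts measured on all 6 arrays, Dusp6 differed by 0.02 in females and -0.64 in males, and Etv5 by -0.42 and -0.07. Other direct partners measured on all 6 did not differ in a single direction. Spry1 differed by -0.53 in females and -1.14 in males, Etv4 by 0.50 and 0.83, and Il17rd by 0.44 and -0.26.

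The ligand Fgf18, which is also made at the isthmus, read 10.42 on both 2 mg arrays, 10.37 and 10.24 on the female 20 mg arrays, and 9.86 and 10.72 on the male 20 mg arrays. Fgfr1, the main receptor of Fgf8 in this tissue, ranged from 12.19 to 13.07. The 20 mg arrays of both lay within 1 of the 2 mg arrays on the log2 scale, and limma called neither. Wnt1, the midbrain signal next to the organizer, read 9.83 at 2 mg and 8.98 and 8.63 at 20 mg in females, and 9.50 at 2 mg and 7.94 and 12.10 at 20 mg in males, so that its male replicates lay on both sides of the 2 mg array.

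Over the 6 arrays, the genes with the pattern most like that of En2, among 10395 genes well above background on all of them, were Insm1, Col3a1 and Hnrnpk. Their deviations from the 6-array mean differed from those of En2 by 0.43, 0.48 and 0.49 on the log2 scale on average, against a median of 1.13 over genes. All 3 were highest on male 20 mg replicate 1, as En2 was. The arrays share the normalization, and no other member was well above background on every array.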

How the data were processed

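Scanner files of 6 arrays were used. Their intensities (processed signal, mean brightness and background) were written by the authors' Agilent Feature Extraction 10.7.3.1, which subtracts the background without scaling between arrays. The log2 values of the deposited value table, quantile normalized and floored by the authors, served as an alternative. Outlier-flagged spots were dropped, the rest averaged by probe, and log2 values quantile normalized with a floor of 10 afterwards. A probe was well above background where the software flagged 50% or more of its spots so. The probe with the highest mean signal stood for a gene. The test was limma 3.58.1 (R 4.3.3) in 4 groups of sex and dose with an empirical Bayes trend, 2 residual degrees of freedom and Benjamini-Hochberg adjustment over 37211 probes, called under 0.05; the lone 2 mg array of a sex is assumed to vary like the 20 mg arrays, and precision is limited by having 6 arrays. The filter on variation kept probes whose variance over the 6 arrays passed a chi-square test at 0.05. The fit was tested on simulated data whose changes lay far above their noise. The members and lists were chosen with earlier results of these data known. Genes named beside the members are their direct partners, pathway genes past 2.5-fold in both sexes, and regional markers picked for their size after the values were seen. Alternatives covered scaling, floor, background, filters, blocks and left-out arrays. All 8 symbols were found in RefSeq (GRCm38.p6), used for names alone.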

Additional observations from a re-analysis of the deposited data

Results flagged for a closer look

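Pax8 had dose differences of opposite sign in the sexes: both female 20 mg values were below the female 2 mg value and both male 20 mg values above the male 2 mg value. The female difference minus the male difference was -3.97 on the log2 scale. Limma gave an interaction p of 0.231 before adjustment and an adjusted p of 1.00 for it. One of the female values is the floor of the dim array, where levels under 8.82 were not well above background, so it does not show a level below the 8.41 at 2 mg, and the 2 mg arrays themselves differed by -1.92, male minus female.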

How the results depend on the processing

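Limma called 0 member probes in every contrast under every setting run, and the smallest adjusted p of a member was 0.219, in females without female 20 mg replicate 1. The count of members past 2.5-fold in females, 4, was 2 under the 75th percentile shift, where 85.4% of kept probes passed, and 3 with the floor before normalization (57.3%), normexp (21.8%) and uncorrected brightness (18.6%). It ranged from 0 to 4 with 1 array left out, 0 being without female 20 mg replicate 2 (16.6%). The count in males, 0, was 1 in the authors' value table (14.4%) and ranged from 0 to 1 with 1 array left out. Signs turned for small differences. Fgf8 in males was -0.0126 under the 75th percentile shift, -0.0173 with normexp and -0.00536 in the authors' table. With 1 array left out in turn, the male differences ranged from -0.12 to 0.20 for Fgf8, from -1.47 to 0.26 for En1, from -1.12 to 0.94 for En2 and from -0.86 to 0.54 for Pax2; leaving out male 20 mg replicate 2 turned Fgf8, En1 and En2, and leaving out replicate 1 turned Pax2. As the mean over its probes Pax2 was 0.012 in males. In females the 75th percentile shift gave En1 0.57 and Fgf8 0.16, and it moved the median of all probes tested from -0.21 to 0.45. With 1 array left out in turn the female differences ranged from -0.78 to 5.24 for Pax5, from -2.80 to 0.19 for Fgf8 and from -0.57 to 0.12 for Gbx2, and the first 2 turned without female 20 mg replicate 2, Gbx2 without replicate 1. Within slide 1 Pax5 was -0.66 and Fgf8 0.18. The cause was not tested. A replicate block for the number of the 20 mg arrays left 0 members called, and since the 2 mg arrays carry no number, whether the numbers pair the samples could not be judged. Blocks for slide and scan day allowed one fit over both sexes, with 0 members called. Signal over background limits Fgf17, Pax5 and every value on the dim array.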
